A study of Mus musculus with 2 samples.

Results

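Solute carrier genes encode membrane proteins that move nutrients, ions, metals and metabolites across the plasma membrane and the membranes of organelles. The set described here was selected by gene symbol and by signal, as the genes whose symbol begins with Slc and a number and whose geometric mean signal over both arrays was at least 25.8. The iron transporter genes Slc40a1, Slc11a1 and Slc11a2 were left out by the same rule. Of 344 such genes on the array, 165 passed, among 9097 genes of any kind at that signal, and they were grouped by substrate. The signals used to choose them are those compared below, so the values are a description of these genes and not a test.

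Signals came from the mouse macrophage-like line RAW264.7 after infection with the MSCV retroviral vector. One group carried the empty vector and the other the vector encoding mir-155. Both groups were exposed to polybrene at infection, selected with puromycin at 7 µg/ml, grown in DMEM with 10% fetal bovine serum and split into single clones by limiting dilution. Each array received a pool of RNA from 5 clones, with 1 array per group, so a difference between clones, between pools or between arrays cannot be told apart from one due to the microRNA. With 1 array per group there was no p-value or standard error to give. The study asked which mRNAs miR-155 regulates.

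As background, each solute carrier family carries a group of related substrates, and its place in the cell sets its role. Amino acid and sugar carriers of the surface feed metabolism, lysosomal carriers return the products of digestion to the cytosol, and the carriers numbered 25 connect mitochondria with it. In macrophages these proteins supply activated cells with glucose and arginine, export lactate, and carry breakdown products of microbes and dead cells out of lysosomes. A microRNA lowers the level of mRNAs that pair with its seed (bases 2 to 8). The mature guide strand of miR-155, the agent that separates the groups, is printed here from RefSeq (GRCm38.p6, chr16:84714143-84714165, plus strand) with its seed in capitals; 3′ untranslated regions of the genes were not analysed here.
mmu-miR-155-5p: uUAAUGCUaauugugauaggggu

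The values are probeset signals, which are intensities on a linear scale, and a gene with several probesets is read from its brightest. The log2 ratio is that of the miR-155 array over the empty-vector array. The local SD beside it is a robust SD of that ratio over the 500 genes closest in brightness, which holds array noise and true differences alike and not the spread between cultures. Where a gene read below 25.8 (the signal floor) on 1 array, both signals are given and no ratio. All 12 listed macrophage markers lay above the floor on both arrays (signals from 147 to 6316 with the empty vector and from 220 to 5287 with miR-155). Single markers differed between the arrays, such as Cd14 (1728 and 4145, empty vector first), Fcer1g (2250 and 3658) and Adgre1 (472 and 289), and their part in the results was not tested. Of 18 measured markers of B, T, erythroid, fibroblast and epithelial cells, 2 reached the floor on either array, Epcam (37.6 and 32.2) and Cd8a (14.8 and 26.5).

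Most solute carrier genes read nearly the same on both arrays. Of the 165 genes, 147 lay within 1.5-fold, 10 were higher by that much on the miR-155 array and 8 lower by that much. That is 6.06% higher and 4.85% lower, against 5.32% and 5.99% of all 9097 genes kept, so these shares lie near the background. At 2-fold the counts were 4 higher and 3 lower (2.42% and 1.82%, against 1.92% and 1.43% of all genes kept). The median log2 ratio was −0.05 for the solute carrier genes and −0.05 for all genes kept, and the robust SD of the ratios was 0.27 and 0.26. Of the solute carrier genes, 66.7% lay within 1 local SD of the local median, and of all genes kept 66.5%.

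**Figure D1:**
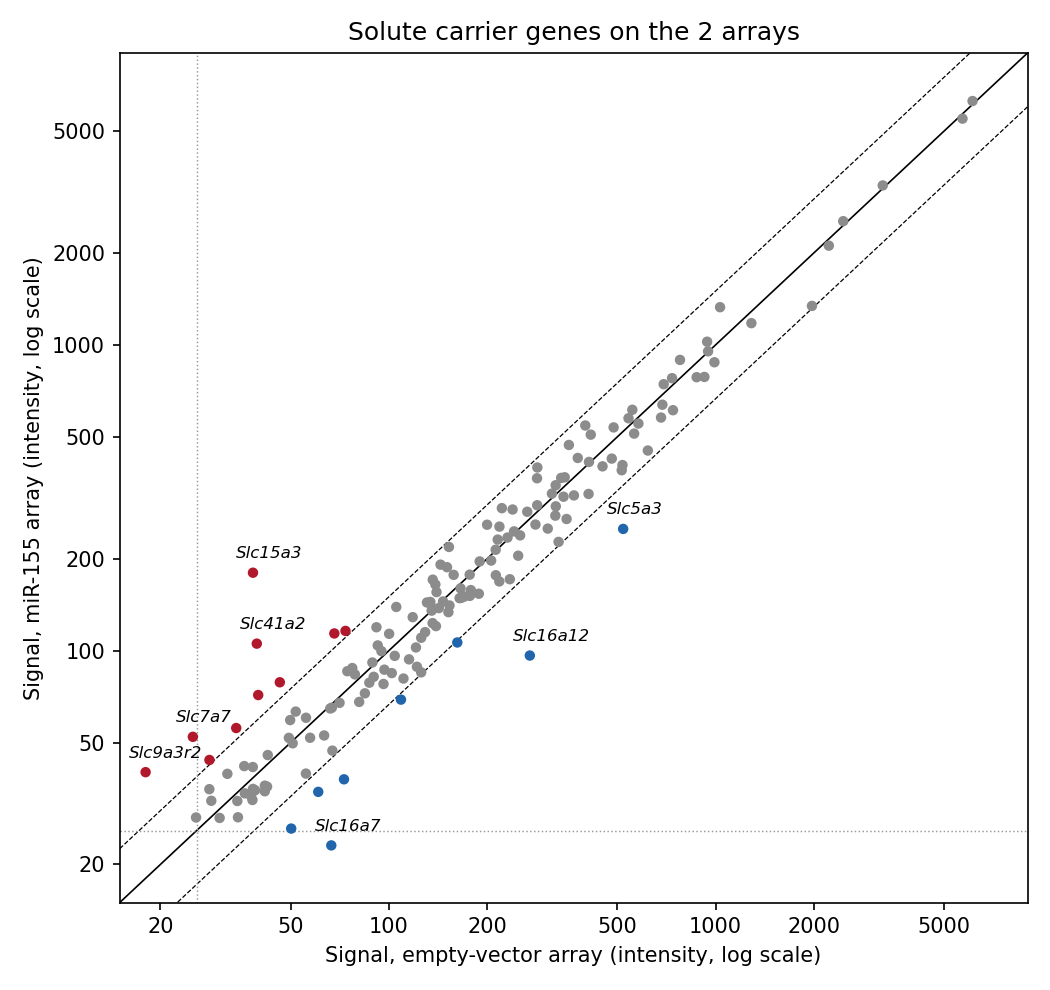
Signals of the 165 solute carrier genes on the empty-vector array (x axis) and the miR-155 array (y axis), both as intensity on a log scale; the solid line is equality, the dashed lines are 1.5-fold, the dotted lines the signal floor. Red points are the 10 genes at least 1.5-fold higher, blue points the 8 at least 1.5-fold lower, and the genes at least 2-fold apart are named; these lie among the lower signals except Slc5a3 and Slc16a12.

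The genes past 1.5-fold were mostly dim ones. Their median geometric mean signal was 56.8, against 165 for the 147 others. When all genes kept were cut into 5 equal bins of signal, the lowest bin held 41 solute carrier genes, of which 7 were past 1.5-fold higher and 4 lower, and the robust SD of all ratios there was 0.51. In the highest bin, with 20 solute carrier genes and a robust SD of 0.15, none was past 1.5-fold in either direction. A distance of 3 local SDs or more from the median of genes of like signal was found for 5 genes, and was reached upwards by 2.29% and downwards by 1.54% of all genes kept. These were Slc15a3 and Slc41a2 on the higher side, and Slc16a12, Slc5a3 and Slc38a2 on the lower side.

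**Figure D2:**
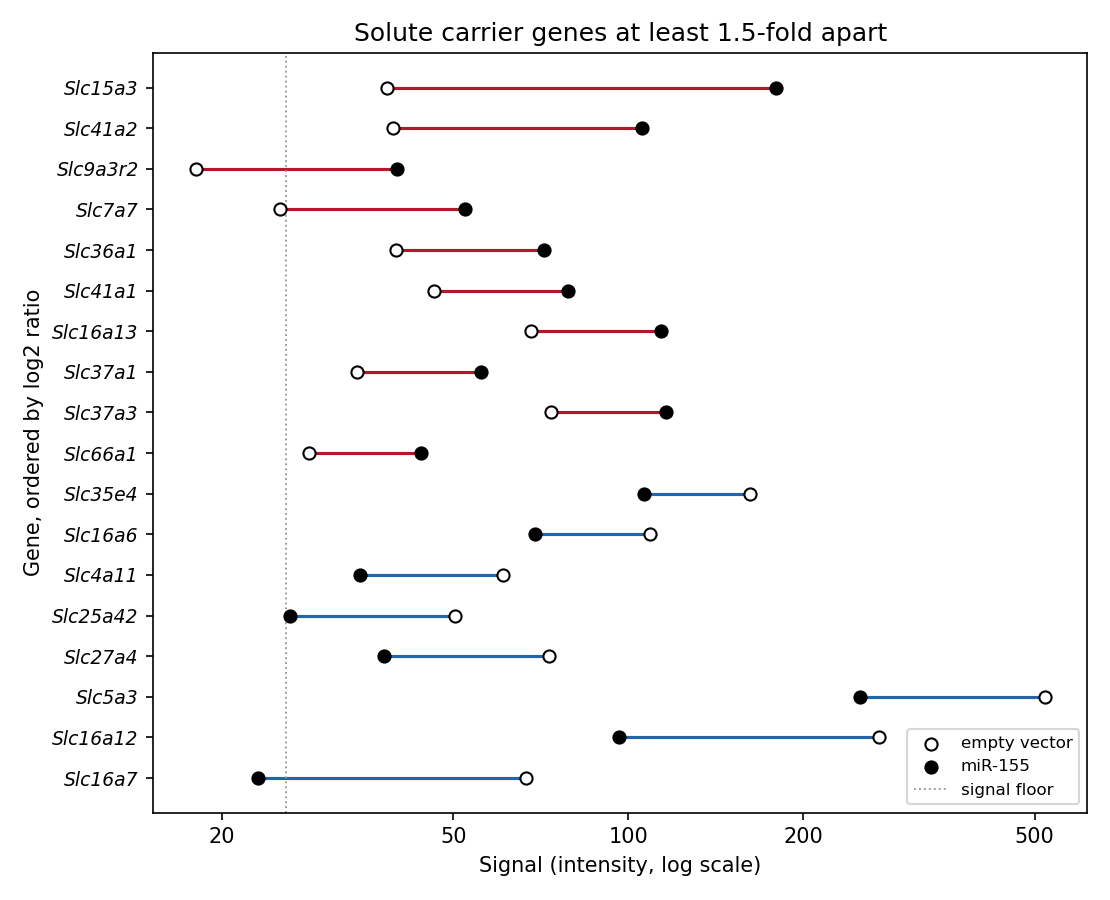
Signals of the 18 solute carrier genes at least 1.5-fold apart, on the empty-vector array (open circles) and the miR-155 array (filled circles), as intensity on a log scale, ordered by log2 ratio; red lines are genes higher and blue lines genes lower with miR-155. The dotted line is the signal floor; Slc9a3r2, Slc7a7 and Slc16a7 have 1 reading below it.

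Promoter sequences were looked at for the genes past 1.5-fold. RefSeq promoter windows (GRCm38.p6, from 250 bases before to 50 after the start of a transcript) were found for 13 of these 18 genes, in 19 windows, and for 130 of the 165. Slc15a3, Slc4a11, Slc16a7, Slc16a6 and Slc16a13 were not matched. The E-box CACGTG, the core of the element read by the lysosomal regulator TFEB, was in 27 of 184 windows of solute carrier genes (14.7%) and in 7.15% of 32851 windows of all genes. The latter windows belong to 27025 genes and were not limited to genes at the signal threshold, as the solute carrier genes were. How far the signal rule by itself alters the shares given here was not tested. An antioxidant response element core, TGACNNNGC, was in 22.3% of the windows of solute carrier genes and in 12.4% of all. The interferon-stimulated response element was in 1.63% and 3.44%, the tonicity element in 2.17% and 5.10%, the AP-1 site TGANTCA in 5.43% and 7.81%, and the amino acid response element TGATGNAA in 2.72% and 3.97%. In the 19 windows of the genes past 1.5-fold, the E-box was in 3, the antioxidant core in 5, the interferon element in 1 (5.26%), the AP-1 site in 1, the tonicity element in 0 and the amino acid response element in 2 (10.5%), both of Slc7a7. All motifs were searched on both strands, windows of one gene can overlap, and a match describes letters and not binding.

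The promoters of 2 of the higher lysosomal carriers, Slc36a1 and Slc37a3, are shown because both hold the E-box, that of Slc37a1 because it is the one window with the interferon element among the 19 searched, and that of Slc16a12 because it belongs to the lower gene farthest from its local median and also holds an E-box. Capitals mark the matches: in Slc36a1 2 E-boxes, the second overlapping an antioxidant core, in Slc37a3 1 E-box, in Slc37a1 the interferon element, and in Slc16a12 1 E-box and 2 antioxidant cores. The E-box thus occurs in genes on both sides of the comparison. The window of Slc66a1, also a lysosomal carrier on the higher side, held no match to any motif and is not shown. Positions are chr11:55204090-55204389, plus strand, chr6:39377658-39377957, minus strand (the other window of this gene holds no match), chr17:31295974-31296273, plus strand, and chr19:34747279-34747578, minus strand.
Slc36a1: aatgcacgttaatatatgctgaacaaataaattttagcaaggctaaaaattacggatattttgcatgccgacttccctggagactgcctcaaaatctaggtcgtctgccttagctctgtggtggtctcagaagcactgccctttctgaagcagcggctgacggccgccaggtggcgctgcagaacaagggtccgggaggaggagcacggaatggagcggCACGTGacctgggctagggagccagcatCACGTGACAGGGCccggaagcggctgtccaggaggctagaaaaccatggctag
Slc37a3: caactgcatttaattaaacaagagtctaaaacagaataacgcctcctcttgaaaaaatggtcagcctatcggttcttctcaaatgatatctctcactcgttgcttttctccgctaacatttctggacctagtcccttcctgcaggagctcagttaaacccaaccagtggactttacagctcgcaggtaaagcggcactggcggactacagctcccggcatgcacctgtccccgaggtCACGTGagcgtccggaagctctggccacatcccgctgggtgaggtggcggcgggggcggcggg
Slc37a1: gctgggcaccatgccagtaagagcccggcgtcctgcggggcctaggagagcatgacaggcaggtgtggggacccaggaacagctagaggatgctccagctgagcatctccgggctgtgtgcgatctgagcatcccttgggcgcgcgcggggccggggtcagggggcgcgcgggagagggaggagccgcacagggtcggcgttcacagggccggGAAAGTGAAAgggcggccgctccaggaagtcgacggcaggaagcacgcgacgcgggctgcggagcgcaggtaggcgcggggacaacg
Slc16a12: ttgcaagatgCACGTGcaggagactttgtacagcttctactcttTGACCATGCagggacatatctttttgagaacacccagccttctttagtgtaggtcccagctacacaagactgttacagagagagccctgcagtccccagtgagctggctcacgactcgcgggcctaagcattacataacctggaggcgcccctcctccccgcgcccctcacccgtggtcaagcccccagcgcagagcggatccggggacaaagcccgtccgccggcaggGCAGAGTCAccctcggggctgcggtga

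Amino acid and peptide carriers held the largest difference and 4 of the 10 higher genes, 1 of them with a reading below the floor. That is 14.3% of the 28 genes of this class, against 5.32% of all genes kept. Slc15a3, an endolysosomal transporter of histidine and of small peptides such as bacterial muramyl dipeptide, had a signal of 38.4 with the empty vector and 180 with miR-155. It was 4.68-fold higher, a log2 ratio of 2.23 with a local SD of 0.36, and no second probeset measured it. Its relative Slc15a4, an endolysosomal transporter of the same substrates, read 284 and 299, a log2 ratio of 0.07 (local SD 0.22). The 2 members of this peptide transporter family kept by the rule thus read differently, and with 1 array per group that contrast was not tested.

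Both lysosomal exporters of amino acids past 1.5-fold were also higher. Slc36a1, which carries small neutral amino acids together with protons out of lysosomes, read 39.8 and 71.6 (log2 ratio 0.85, local SD 0.44). Slc66a1, which exports cationic amino acids from lysosomes, read 28.2 and 43.9 (0.64, local SD 0.57), about 1 local SD above 0. Slc7a7, a light chain that exports arginine and lysine at the plasma membrane with the heavy chain Slc3a2, read 25.1 and 52.3, the first reading below the floor. Its further probeset read 24.8 and 36.9. Slc3a2 itself read 778 and 893 (0.20, local SD 0.17).

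No amino acid or peptide carrier was 1.5-fold lower (5.99% of all genes kept were), and 24 of the 28 lay within 1.5-fold, from −0.56 to 0.28. The lower end of that range was Slc38a2, the sodium-coupled neutral amino acid transporter that cells induce when amino acids are scarce. It read 1971 and 1340.4, a log2 ratio of −0.56 with a local SD of 0.15. Its further probesets did not bear this out evenly, at 181 and 213 in one (log2 ratio 0.23) and at 37.6 and 19.6 in the other. The aromatic amino acid transporter Slc16a10 (620.0 and 451, log2 ratio −0.46), the branched-chain amino acid transporter Slc43a2 (234 and 171, −0.45) and the glycine transporter Slc6a9 (111 and 81.0, −0.45) were next. In each of these 3 genes the further probesets above the floor were lower too, at −0.25 for Slc16a10, −0.60 for Slc43a2 and −0.57 for Slc6a9.

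The carriers that take up the bulk amino acids differed little. The glutamine transporter Slc1a5 read 991 and 877 (log2 ratio −0.18), Slc38a1 875 and 784 (−0.16) and the leucine transporter light chain Slc7a5 556 and 613 (0.14). The arginine transporter Slc7a1 read 740 and 611 (−0.28, local SD 0.19), and its second probeset above the floor gave −0.18. Slc7a2, the arginine transporter induced in activated macrophages, was below the signal threshold, at 10.2 and 2.11, as was the cystine transporter Slc7a11, at 18.04 and 25.2. No ratio is given for either, since both readings lie below the floor.

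Among 8 carriers of monocarboxylates and other carboxylates, 3 were past 1.5-fold on the lower side, 1 of them with a reading below the floor, and 1 on the higher side. Over all genes kept the shares were 5.99% lower and 5.32% higher. Slc16a12, a creatine transporter counted in this class by its family, the monocarboxylate family, read 270 and 96.4 (log2 ratio −1.49, or 2.80-fold lower, local SD 0.27). Slc16a7, a high-affinity transporter of lactate and pyruvate, read 66.6 and 23.1, the second reading below the floor. Slc16a6, of the same family, read 109 and 69.2 (−0.65, local SD 0.36), and Slc16a13 went the other way, at 68.1 and 114 (0.74, local SD 0.37). All 4 rest on 1 probeset.

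The lactate transporters most used by glycolytic cells did not share these differences. Slc16a1 read 2220 and 2110.0 (log2 ratio −0.07, local SD 0.14) and the lactate exporter Slc16a3 177 and 177 (0.00, local SD 0.28). The sodium-coupled carriers of citrate and of dicarboxylates, Slc13a5 and Slc13a3, were dim, with log2 ratios of −0.18 and 0.30 against a local SD of 0.56 for each.

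Among 14 carriers of sugars and polyols, 11 had a ratio above 0, and the median was 0.14. A ratio above 0 was found for 77 of the 165 solute carrier genes and for 3822 of the 9097 genes kept. Every gene of the Slc2 family kept by the rule read slightly higher with miR-155, from 0.07 for Slc2a8 to 0.48 for Slc2a6. Slc2a6, a transporter of lysosomal membranes induced by lipopolysaccharide in macrophages, read 285 and 397, with a local SD of 0.21. The basal glucose transporter Slc2a1 read 693 and 743 (0.10, local SD 0.18; 0.19 and 0.13 in its further probesets) and Slc2a3 378 and 427 (0.17, local SD 0.19; 0.55 in its further probeset above the floor).

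The Slc37 family, sugar-phosphate antiporters of the endoplasmic reticulum and relatives, had ratios above 0 in its 4 kept members. Slc37a1 read 34.1 and 55.8 (log2 ratio 0.71, local SD 0.54) and Slc37a3, which releases bisphosphonate drugs from lysosomes, 73.6 and 116 (0.66, local SD 0.36). Slc37a4, which brings glucose-6-phosphate to glucose-6-phosphatase, and Slc37a2 of the macrophage lineage stood at 0.12 and 0.15. These last values are below their local SDs of 0.31 and 0.30.

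Slc5a3 was the one sugar or polyol carrier 1.5-fold lower. It takes up myo-inositol, an osmolyte and the head group of phosphoinositides, with sodium. It read 521 and 250.0 (log2 ratio −1.06, or 2.08-fold lower; local SD 0.21), and its second probeset above the floor, at 75.3 and 43.8, gave −0.78. The last probeset, at 3.71 and 11.6, lay below the floor on both arrays, and the mean over all 3 was −0.07. Mrps6, a mitochondrial ribosomal protein gene whose span overlaps that of Slc5a3 in the RefSeq gene table, read 1882 and 1387 (log2 ratio −0.44, local SD 0.15), with −0.69 in its further probeset; how far the probes of these genes read each other's transcripts was not tested. Slc5a2 (−0.28) was dim, with a local SD of 0.58.

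Of the 17 carriers of inorganic ions, 2 were at least 1.5-fold higher (11.8%, against 5.32% of all genes kept), and both carry magnesium. Both were dim, with geometric mean signals of 64.5 for Slc41a2 and 60.4 for Slc41a1. Slc41a2, a magnesium transporter, read 39.4 and 105 (2.67-fold higher, log2 ratio 1.42, local SD 0.39), and Slc41a1, the sodium-magnesium exchanger of the plasma membrane, 46.4 and 78.8 (0.77, local SD 0.39). The further probeset of Slc41a1 had the same direction, at 5.75 and 16.9, but both readings lie below the floor. Slc41a3, the remaining gene of the family, read 38.95 and 34.95 (−0.16, local SD 0.58), so its members were not on one side.

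The other ion carriers included 1 gene at least 1.5-fold lower, Slc4a11, a proton and water transporter of the bicarbonate carrier family, at 60.8 and 34.5 (log2 ratio −0.82, local SD 0.53). With its second probeset, at 6.48 and 12.7, averaged in, the ratio turned to 0.08. The potassium-chloride cotransporter Slc12a7 read 126 and 84.9 (−0.56, local SD 0.35), against −0.12 in its further probeset. The phosphate importers were on the higher side: Slc20a1 read 399 and 545 (0.45, local SD 0.20), and Slc20a2 91.6 and 119 (0.38, with 0.24 in its further probeset). The sodium-potassium-chloride cotransporter Slc12a2 (0.05) and the anion exchanger Slc4a2 (−0.23) lay within 1 local SD of 0. The further probesets of Slc12a2 gave 0.06 and −0.50. The sulfate and anion carriers of the Slc26 family lay from −0.29 to −0.10 in 3 genes.

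**Figure D3:**
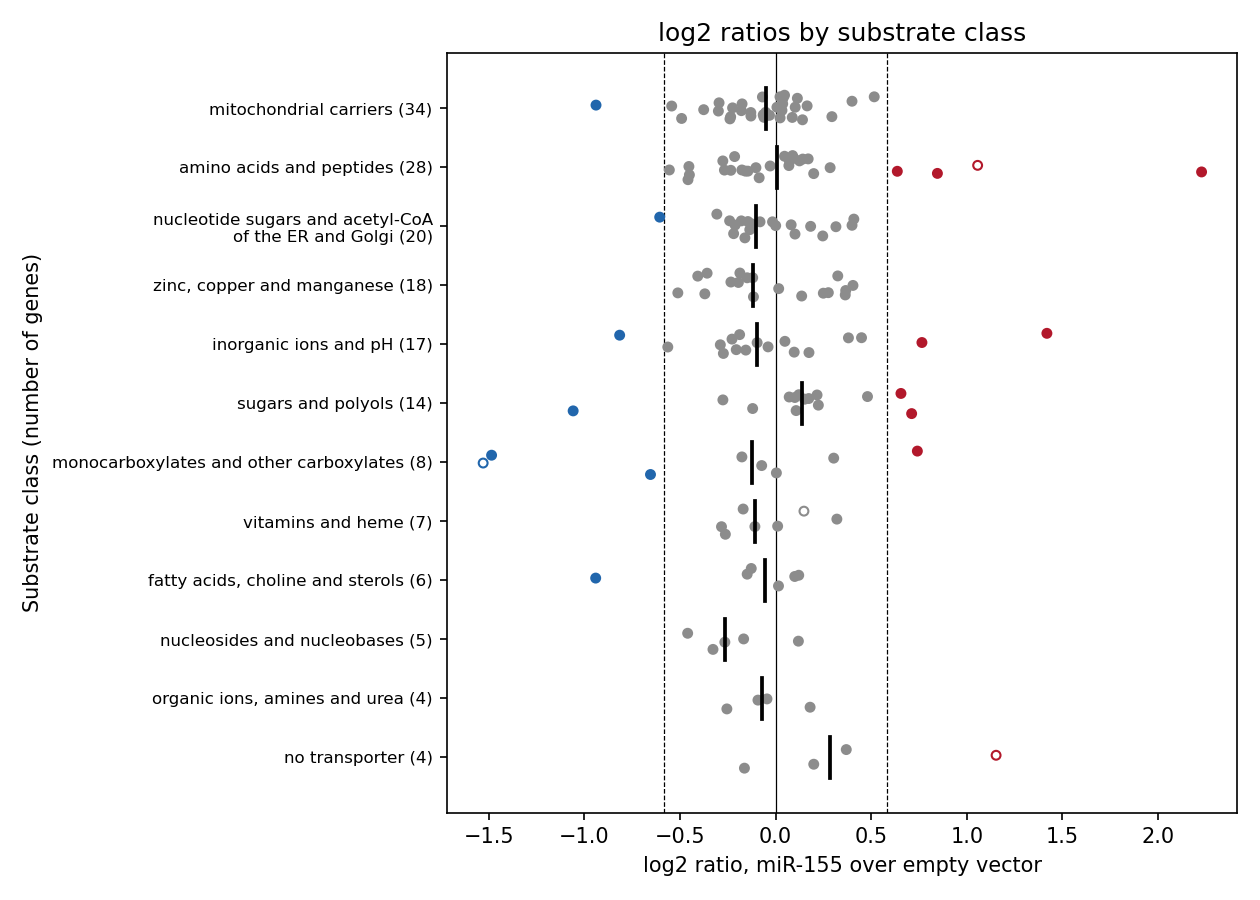
log2 ratio (miR-155 over empty vector) of each of the 165 genes by substrate class, with the number of genes in brackets; black bars are class medians, dashed lines are 1.5-fold, red and blue mark genes past it on the higher and lower side, and open circles are genes with 1 reading below the floor. Class medians lie between −0.27 and 0.28, and the carboxylate carriers have the largest robust SD, 0.71.

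Mitochondrial carriers were the largest class, and 33 of 34 lay within 1.5-fold, and 22 of them within 0.2 of 0. Of all 9097 genes kept, 8068 lay within 1.5-fold. The median absolute log2 ratio was 0.13 for this class and 0.18 for all genes kept. The ADP/ATP carriers Slc25a5 (6111 and 6269) and Slc25a4 (2456 and 2537) had log2 ratios of 0.04 and 0.05, and the phosphate carrier Slc25a3 (5692 and 5491) −0.05, each with a local SD of 0.13 or less. The 7 further probesets of Slc25a5 gave −0.13 to 0.20. Slc25a39, which carries glutathione into mitochondria, read 3245 and 3320.4 (0.03).

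A single mitochondrial carrier passed 1.5-fold, the coenzyme A carrier Slc25a42, at 50.2 and 26.2 (log2 ratio −0.94, local SD 0.56); the second reading is just above the floor. Slc25a45 read 331 and 227 (−0.54, local SD 0.22) and the aspartate-glutamate carrier Slc25a13 350 and 269 (−0.38, local SD 0.20), whereas its close relative Slc25a12 read 948 and 952 (0.01). Slc25a38, which brings in glycine for heme synthesis, read 153 and 218 (0.52, local SD 0.28), the pyrimidine nucleotide carrier Slc25a33 222 and 292 (0.40, local SD 0.24), and the ATP-magnesium/phosphate carrier Slc25a24 415 and 508 (0.29, local SD 0.18; 0.90 in its further probeset). The mitoferrins Slc25a37 (−0.30) and Slc25a28 (−0.06), which import iron, lay within 1 local SD of 0.

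The ornithine carrier Slc25a15 read 188 and 153 (log2 ratio −0.30, local SD 0.27) by its main probeset and 67.5 and 34.4 (−0.97) by its other. The citrate carrier Slc25a1 (−0.23), the carnitine-acylcarnitine carrier Slc25a20 (0.16), the dicarboxylate carrier Slc25a10 (−0.18) and the oxoglutarate carrier Slc25a11 (−0.07) were all within 1.5-fold. The further probesets of Slc25a20 (−0.27) and Slc25a10 (0.29) had the opposite sign.

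All 18 carriers of zinc, copper and manganese lay within 1.5-fold, with a median of −0.12, and 8068 of all 9097 genes kept did so too. The Slc39 family, which moves zinc into the cytosol, ran from −0.41 to 0.40 in 9 genes, and the Slc30 family, which moves zinc out of it, from −0.23 to 0.37 in 7. Slc39a14, which also takes up manganese and iron and is induced in inflammation, read 355 and 470 (0.40, local SD 0.19), with further probesets above the floor at 0.70 and 0.24. Slc39a6 read 1031 and 1327 (0.36, local SD 0.16), with 0.35 in its further probeset above the floor. On the lower side, the zinc exporter of the endoplasmic reticulum Slc39a7 read 516 and 389 (−0.41, local SD 0.19), and Slc39a10 519 and 404 (−0.36, local SD 0.19; −0.32 in its further probeset). The copper transporters Slc31a1 (218 and 168, −0.37; −0.28 in its further probeset) and Slc31a2 (67.1 and 47.1, −0.51; −0.41) were lower by both probesets, within 1.5-fold.

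The class of nucleotide sugar and acetyl-CoA carriers of the endoplasmic reticulum and Golgi, set by family, held 20 genes with a median of −0.10. Such carriers supply the enzymes of glycosylation and acetylation, though this substrate or place is not settled for every member. Slc35e4, whose substrate is not settled, was 1.5-fold lower, at 162 and 106 (log2 ratio −0.61, local SD 0.31), but its further probeset read 93.6 and 94.0 (0.01). The carriers of UDP-galactose (Slc35a2, −0.16), GDP-fucose (Slc35c1, −0.22), CMP-sialic acid (Slc35a1, 0.32) and acetyl-CoA (Slc33a1, 0.10) and the ATP/ADP exchanger Slc35b1 (735 and 778, 0.08) lay within 1.5-fold. Slc35f6, which is also on the list of lysosomal and endosomal carriers below, was the highest at 0.41, against −0.26 in its further probeset above the floor.

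Carriers of lipids held 1 gene past 1.5-fold. Slc27a4, which activates long-chain fatty acids as they enter the cell, read 72.9 and 37.9 (1.92-fold lower, log2 ratio −0.94, local SD 0.45). Its relative Slc27a1 stood at −0.15 and the choline transporters Slc44a1 (1286 and 1177) and Slc44a2 (942 and 1024) at −0.13 and 0.12. The 5 nucleoside and nucleobase carriers had a median of −0.27, and none reached 1.5-fold. The equilibrative nucleoside transporter Slc29a1 read 408 and 325 (−0.33, local SD 0.21), and the lysosomal Slc29a3 122 and 88.6 (−0.46, local SD 0.34), whereas Slc29a2 stood at 0.12.

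Vitamin and heme carriers and organic ion carriers showed no gene past 1.5-fold. The reduced folate carrier Slc19a1 read 687 and 637 (log2 ratio −0.11), the thiamine transporter Slc19a2 451 and 400.5 (−0.17), the ascorbate transporter Slc23a2 249 and 204 (−0.28, but 0.62 in its dimmer probeset) and the lysosomal heme transporter Slc48a1 212 and 214 (0.01). The organic ion carrier with the highest ratio was Slc22a17, at 0.18. The carnitine transporter Slc22a5 (−0.26) and the sialic acid exporter of lysosomes Slc17a5 (−0.05) were within 1 local SD of 0. Slc46a3, a lysosomal carrier, read 25.7 and 28.5, the first reading just below the floor. Of 4 genes whose symbol begins with Slc although they encode no transporter, the scaffold protein gene Slc9a3r2 read 18.01 and 40.0. Slc4a1ap stood at −0.16, and the other scaffold gene Slc9a3r1 read 200 and 258 (0.37, local SD 0.25; 0.06 and 0.12 in its further probesets).

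Several groupings cut across the substrate classes. Of 15 measured carriers on a list of lysosomal and endosomal carriers, 13 passed the signal rule, 3 were at least 1.5-fold higher (Slc15a3, Slc36a1 and Slc37a3) and 0 as much lower (5.32% and 5.99% of all genes kept), with a median of 0.17. The list is not complete, since Slc66a1 (0.64) and Slc2a6 (0.48), which are also found on lysosomal membranes, are not on it. They are examples and not a count of all missing genes, so they do not show on which side the missing genes lie. The other lysosomal carriers of this list included the arginine-sensing Slc38a9 (49.4 and 51.8, 0.07, local SD 0.51) and the glutamine exporter Slc38a7 (92.4 and 104.0, 0.17, local SD 0.36). The zinc carrier Slc30a4 (136 and 171, 0.32, local SD 0.30) and the dim Slc49a4 (28.2 and 35.2, 0.32, local SD 0.59) were above 0 too. So was Slc35f6 (0.41, local SD 0.27, but −0.26 in its further probeset above the floor). Of the 13 genes, 2 lay below 0, Slc29a3 (122 and 88.6, −0.46, local SD 0.34) and Slc17a5 (142 and 138, −0.05, local SD 0.31). Within 1.5-fold lay 10 of the 13, while Slc30a2 and Slc9a9 (13.1 and 38.6) were below the threshold. Of 11 measured solute carriers known from activated macrophages, 8 passed and 1, Slc15a3, was at least 1.5-fold higher (median 0.13); the zinc importer Slc39a8 was below the threshold, at 6.35 and 4.53. Of 9 carriers that the stress factor ATF4 induces, 7 passed and none differed by 1.5-fold in either direction (median −0.18). Among them was the neutral amino acid transporter Slc1a4 (57.4 and 51.9, −0.15, but 0.41 in each of its further probesets). Slc7a3 and Slc7a11 were below the threshold. Of 6 listed hypoxia-responsive carriers, the 5 measured all passed and none differed by 1.5-fold (median 0.10), including the bicarbonate cotransporter Slc4a4 (28.6 and 32.3, 0.17). Of the 3 listed NRF2-responsive carriers, Slc39a14 and Slc48a1 passed. The lists share genes, and the background shares given above apply to them.

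Transport genes under other names were read beside these. Among 27 carriers of the same superfamily with other symbols, none was past 1.5-fold on the higher side and 1 on the lower side, the mitochondrial serine transporter family member Sfxn3 (174 and 86.1, log2 ratio −1.01), with a median of 0.07. Of 17 ABC transporters, which pump substrates with ATP, 5 were at least 1.5-fold higher and 1 lower, against 5.32% and 5.99% of all genes kept (median 0.13); 3 of the 5 higher ones (Abca2, Abcb9 and Abcc3) had a reading below the floor, and the cholesterol exporters Abca1 (46.2 and 84.2, 0.87) and Abcg1 (172 and 261, 0.61) were among the higher ones. None of 9 P-type ion pumps differed by 1.5-fold (median −0.10). Of 20 genes of lysosomal amino acid sensing, 2 were higher, the arginine sensor Castor1 (27.6 and 70.3, 1.35) and Lamtor4 (286 and 439, 0.62), and 1 lower, the mTORC1 activator Rheb (1579 and 1002, −0.66). Of 7 partners of glucose and lactate transport 1, the lactate dehydrogenase subunit gene Ldhb, was past 1.5-fold, at 44.1 and 24.4, the second reading below the floor. The shares of all genes kept, 5.32% higher and 5.99% lower, are the background for each of these lists.

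A second probeset gave a check within the arrays for some genes. Of the 165 genes, 63 had at least 1 further probeset that reached the floor on both arrays, 92 probesets in all. Their median had the sign of the main probeset in 40 of the 63 genes, and differed from the gene's ratio by a median of 0.19; over all genes kept the sign was the same in 2520 of 3894, with a median difference of 0.18. Among the 18 genes past 1.5-fold only Slc5a3 and Slc35e4 had such a probeset, and it bore out the first and not the second. Probesets of one gene share the RNA and the array, so they check the probes and not the pools.

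**Figure D4:**
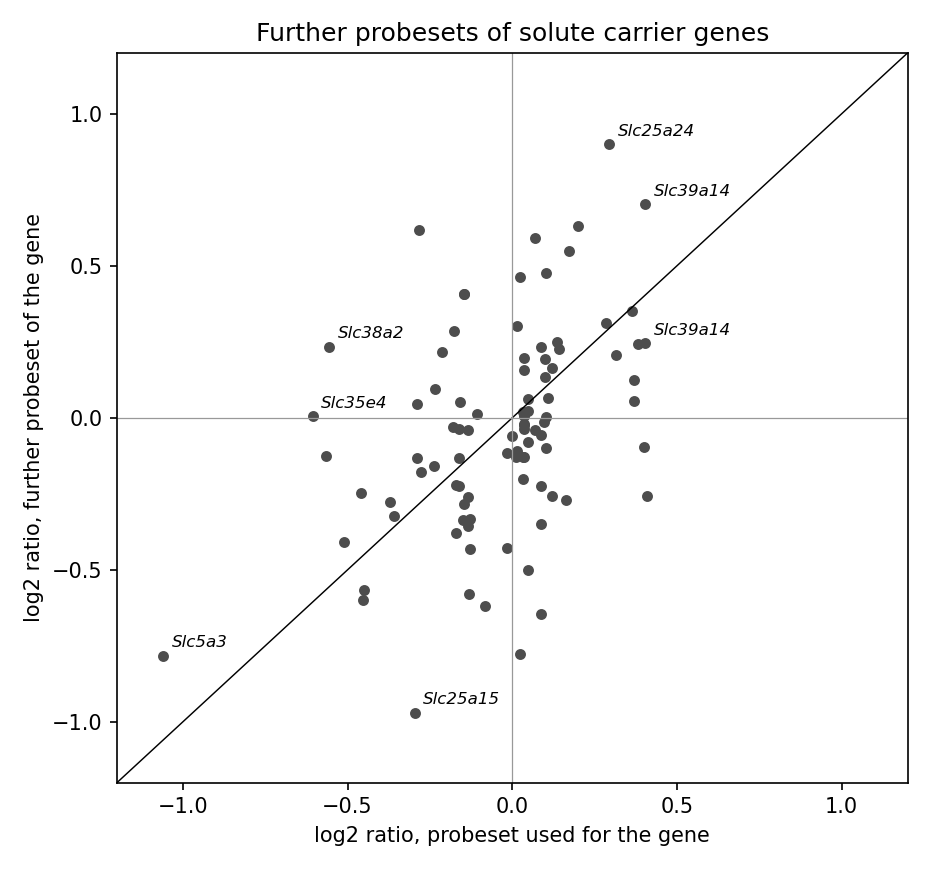
log2 ratio of the probeset that represents a gene (x axis) against that of each further probeset of the same gene that reached the floor on both arrays (y axis), for 92 probesets of 63 solute carrier genes; the diagonal is equality. Slc5a3 lies below 0 on both axes, Slc35e4 lies at 0.01 on the y axis, and Slc38a2 has opposite signs.

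The signal threshold leaves out 179 solute carrier genes. The genes just inside it were Slc9a3r2 (geometric mean 26.9), Slc46a3 (27.05) and Slc26a11 (29.3), and those just outside Slc6a17 (25.6), Slc6a19 (24.9) and Slc9a5 (24.1). Among the 179, 15 had 1 reading at or above the floor and 0 had both. They included the endosomal sodium-proton exchanger Slc9a9 (13.1 and 38.6), the neutral amino acid transporter Slc7a8 (11.7 and 36.3) and the vesicular nucleotide carrier Slc17a9 (48.6 and 8.13). The classes most affected were organic ions, amines and urea, with 27 of 31 genes on the array left out, and inorganic ions, with 39 of 56, whereas 10 of 44 mitochondrial carriers were left out. Low signals are bounds on what these probesets could read, and do not show that a carrier is missing from the cells.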

How the data were processed

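The authors deposited 1 table of probeset intensities on a linear scale for 2 Affymetrix arrays, 1 per group, per the labels. How they were summarised, background-corrected and scaled is not stated by the labels. Probesets were named through the platform annotation: 34945 of them had 1 symbol, 932 had several and 9160 were unlisted, with 64 control probesets left out. For each of 18193 genes the brightest probeset by mean log2 was used, and the brighter 50% of genes were kept. The log2 ratio used the signals as deposited, with no offset. No test was possible with 1 array per group; p-values and standard errors are not given. Replicates being 1 per group, the number of arrays limits every value. Substrate classes follow the numbered families, except for single genes of another substrate, such as Slc16a10, Slc5a6 and Slc43a3. Genes were named where they passed 1.5-fold, were the highest, lowest or brightest of a class, belonged to a list on solute carriers or lay by the signal threshold; any others were chosen after their values were seen. The members, classes and lists were chosen with earlier results of these data known, and the promoter motifs were chosen after the data were seen. The steps were tested on simulated data. Alternatives changed the filter, offset, probeset rule, scaling and floor. Python 3.11.15, numpy 2.4.6, pandas 2.3.3 and matplotlib 3.10.9 were used.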

Additional observations from a re-analysis of the deposited data

How the results depend on the processing

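The counts of genes past a fold depended on the filter, the offset and the probeset rule. At least 1.5-fold higher and lower, in that order, were 0 and 1 of 64 genes in the upper 25% of signal, 65 and 79 of 344 with no filter, 2 and 3 after an offset of 50, 17 and 18 when a gene's probesets were averaged, and 16 and 17 of 267 with each probeset by itself. At least 2-fold these were 0 and 1, 50 and 59, 1 and 1, and 7 and 7 for the first 4 of these settings; the higher count was also 2 with an offset of 16 and 2 without genes with a reading below the floor. The counts over all genes moved in the same direction, for example to 110 and 95 at 1.5-fold in the upper 25% of signal and to 3111 and 3848 with no filter. Centring, quantile normalisation, raising low readings to the floor and leaving out genes that encode no transporter kept all 4 counts within 1.5 times. The median log2 ratio of the solute carrier genes was 0.0085 in the upper 25% of signal, −0.080 with no filter, 0.026 after centring (the all-probeset median set to 0) and −0.0095 after quantile normalisation; the median of all genes was −0.049, −0.06, 0.029 and −0.0031 there. Class medians moved as follows. In the upper 25% of signal they were −0.13 for amino acids, 0.10 for fatty acids, 0.048 for inorganic ions and 0.023 for mitochondrial carriers. With probesets averaged they were 0.16 for amino acids, −0.26 for fatty acids, −0.65 for carboxylates, 0.044 for vitamins and 0.16 for metals, which was 0.016 with each probeset by itself. After centring they were 0.087 for amino acids, 0.026 for mitochondrial carriers, −0.026 for nucleotide sugars and 0.21 for sugars. Nucleosides were at −0.12 with an offset of 50 and −0.18 after quantile normalisation, sugars at 0.094 and 0.19 in the same settings, and organic ions at −0.29 with no filter. The cause was not tested. Among the 15 genes past 1.5-fold with both readings at the floor, the sign turned for Slc4a11 (0.079 with probesets averaged) and Slc35e4, whose 1 further probeset gave 0.0055; Slc5a3 was at −0.066 with probesets averaged. The filter, the raised floor and, for genes with 1 probeset, the averaging could not alter these ratios. Slc15a3 ranged from 1.38 to 2.31, Slc16a12 from −1.49 to −1.13 and Slc41a2 from 0.80 to 1.497 over the values as deposited, the offsets and the scalings. No paired analysis was possible because each group has 1 array.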
